A study of Mus musculus with 32 samples.

Results

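The genes of the mitochondrial respiratory chain and ATP synthase were followed in microglia sorted from the mouse spinal cord, in 15 female and 17 male RNA-seq libraries that all carry the label day 14. They were chosen by symbol: genes starting with Nduf, Sdh, Uqcr, Atp5, mt-Nd, mt-Co, mt-Cyt or mt-Atp, and Cox genes numbered 4 to 8, without pseudogenes. This gave 103 of the 13377 genes in the female table, of which 90 are nuclear and 13 mitochondrially encoded. In the male table it gave 90 nuclear and 12 mitochondrially encoded genes of 11999, because mt-Nd4l was not listed there. By symbol, 52 of the female members belong to complex I (51 in the male table), 8 to complex II, 9 to complex III, 15 to complex IV and 19 to complex V, and 12 of the complex I and II members are assembly factors (Ndufaf and Sdhaf genes) that are not part of the finished enzymes. Ndufa4 counts under complex I by its symbol, although its protein is now known as a subunit of complex IV.

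The genotype label is Cx3Cr1-Cre;Rosa26-iDTR for all 32 libraries. In these mice tamoxifen turns on a diphtheria toxin receptor in cells that express the fractalkine receptor gene Cx3cr1, so that the toxin can deplete microglia transiently. Cells that refilled the tissue after such a depletion are called repopulated here. Resident libraries are labelled as having had no depletion. The female groups without fracture held 4 resident and 3 repopulated libraries, and the fracture groups 4 of each state. The male groups without fracture held 3 resident and 2 repopulated libraries, and the fracture groups 5 resident and 7 repopulated ones. The sample descriptions mark the non-depleted libraries Wt or WT and the depleted ones Dt or iDTR, in spite of the shared genotype label, so repopulation cannot be told apart from a difference in genotype or in toxin exposure. The labels do not state whether each library came from its own animal, so a p-value here is set against a spread between libraries that may be technical. The Cre driver is active in other macrophages that express Cx3cr1 as well as in microglia. Age is not given in the labels.

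The respiratory chain passes electrons from NADH (complex I) and succinate (complex II) through coenzyme Q, complex III and cytochrome c to oxygen at complex IV, also called cytochrome c oxidase. Complexes I, III and IV pump protons across the inner mitochondrial membrane, and complex V, the ATP synthase, uses the returning protons to make ATP. Most subunits are encoded in the nucleus and imported, while a few hydrophobic core subunits are encoded by the mitochondrial genome, so complexes I, III, IV and V need products of both. Some nuclear subunits come in tissue isoforms: Cox6a1 is the widespread form of subunit 6A of complex IV and Cox6a2 the form typical of heart and skeletal muscle. Cox7a2l, known as SCAF1, is a relative of the subunit 7A isoforms that joins complexes III and IV into a supercomplex. Microglia are known to shift between oxidative phosphorylation and glycolysis when they are activated.

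The sequences below are shown because the results turn on the genes they belong to. The first covers the 250 bases before the RefSeq start of Cox7a2l (GRCm38.p6, chr17:83514334-83514583, minus strand), the gene that was called in 3 of the 4 comparisons of repopulated with resident cells. The window lies directly before the start of the coding transcript that was counted, at 83514330 in GENCODE M21. The gene's annotated span begins further upstream, at 83517330, where a non-coding transcript that was not counted starts. Capitals mark the core of an Sp1 site (GGGCGG), which begins 22 bases before the start.
Cox7a2l promoter: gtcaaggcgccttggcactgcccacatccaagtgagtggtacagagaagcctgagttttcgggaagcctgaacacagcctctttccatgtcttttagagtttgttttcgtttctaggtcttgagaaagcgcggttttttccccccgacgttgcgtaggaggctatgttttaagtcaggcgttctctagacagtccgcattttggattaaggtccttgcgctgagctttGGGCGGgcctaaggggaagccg
The second set is the coding sequence of the isoform pair Cox6a1 (GRCm38, gene at chr5:115345642-115348981, minus strand; the first 300 of 339 bases) and Cox6a2 (chr7:128205435-128206387, minus strand; all 294 bases), of which Cox6a2 had the largest fold change of any member. Capitals mark the longest run of bases that both share in their alignment, 12 bases.
Cox6a1 coding sequence: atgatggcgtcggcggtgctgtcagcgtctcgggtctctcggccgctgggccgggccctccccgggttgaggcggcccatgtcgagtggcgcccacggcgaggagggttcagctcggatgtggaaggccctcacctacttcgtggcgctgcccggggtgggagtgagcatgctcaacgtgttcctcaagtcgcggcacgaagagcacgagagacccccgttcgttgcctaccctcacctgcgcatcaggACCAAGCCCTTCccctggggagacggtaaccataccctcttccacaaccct
Cox6a2 coding sequence: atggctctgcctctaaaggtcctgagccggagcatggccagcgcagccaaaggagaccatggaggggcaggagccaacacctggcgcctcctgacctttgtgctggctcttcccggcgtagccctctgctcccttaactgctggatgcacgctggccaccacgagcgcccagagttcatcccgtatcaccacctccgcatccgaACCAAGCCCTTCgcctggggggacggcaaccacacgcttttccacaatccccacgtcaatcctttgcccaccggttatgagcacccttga
Of 283 aligned bases 205 were identical, or 72.4%, so reads of the 2 isoforms differ at many positions. The last is the stretch of the mitochondrial genome (GRCm38, chrM:7927-7969, plus strand) where the end of mt-Atp8 and the beginning of mt-Atp6 overlap by 43 bases, and where reads fit both genes. Capitals mark the start codon of mt-Atp6.
mt-Atp8 and mt-Atp6 shared bases: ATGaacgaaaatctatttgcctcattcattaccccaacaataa

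The 250 bases before the start were searched in 81 RefSeq promoters of 76 of the 103 members (GRCm38.p6) for 4 motifs, on both strands and with overlaps between motifs allowed. GCATGCGC, a core of the site for NRF1, a known activator of respiratory chain genes, was present in 9 of them (11.1%) against 2.26% of 32851 promoters of the same length. CCGGAAG, an ETS core of the kind that GABPA binds, was present in 16 (19.8%) against 6.91%. GGGCGG, the Sp1 core, was present in 33 (40.7%) against 32.7%, and AAGATGG, a core of the YY1 site, in 1 (1.23%) against 4.49%. The median GC content was 57.6% in the members' windows and 52.4% in all. In the Cox7a2l window the Sp1 core was the only one of the 4 that matched. These are matches of letters and not measured binding sites.

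The female libraries held 16438800 to 18654200 estimated counts and the male ones 5722990 to 33697500. Female and male libraries were made with different kits, so that sex and kit are the same split and each table was analysed apart. The 10 microglial markers were all measured, and their summed level in CPM (counts scaled to equal effective library sizes) was 42830 to 51133 in females and 52255 to 66090 in males. Markers of border-associated macrophages (3 of 6 listed in females, Mrc1, Ms4a7 and Pf4; 4 of 6 in males, which adds F13a1) summed to 0.836 to 5.43 CPM in female resident and 4.96 to 65.1 CPM in female repopulated libraries. In males these sums were 2.90 to 10.9 and 5.03 to 80.0 CPM. Monocyte markers (Plac8, Itgal and S100a4 of 5 listed) summed to 4.55 to 35.2 CPM in female resident, 11.3 to 54.0 in female repopulated, 2.09 to 96.6 in male resident and 4.20 to 35.9 CPM in male repopulated libraries. Pecam1 and Flt1, the endothelial markers listed in females, summed to 16.8 to 25.5 CPM in resident and 1.59 to 8.12 CPM in repopulated libraries. In males Pecam1 alone was listed, at 17.3 to 28.2 and 0.545 to 19.6 CPM. Markers of oligodendrocytes (4 of 5 listed) summed to 114 to 304 CPM in females and 67.5 to 104 CPM in males. Csf3r, the one neutrophil marker of 5 listed in the tables and also a gene of microglia, stood at 856 to 996 CPM in female resident and 1083 to 1246 CPM in female repopulated libraries, and at 346 to 454 and 447 to 601 CPM in males. Cd79b and Ighm (2 of 4 B cell markers) summed to 475 to 602 against 336 to 445 CPM in females and to 419 to 529 against 309 to 447 CPM in males. None of 4 T and NK cell markers was listed. The part of these cells in the results below was not tested. In such bulk samples, fewer cells of a type and less RNA per cell cannot be told apart.

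Over all libraries the most abundant members were mitochondrially encoded genes, though not every mitochondrially encoded gene was abundant. Levels of different genes are compared here per length, as length-scaled CPM, in which each transcript's counts are divided by its annotated length before scaling. On that scale the median was 785 over the 13 mitochondrially encoded genes and 131 over the 78 nuclear subunits in females, and 707 over 12 and 156 over 78 in males. The 12 assembly factors had medians of 22.5 and 16.9. The highest member was mt-Atp6, a membrane subunit of the ATP synthase, at 3735 ± 524 (SD, n = 15 libraries) in females and 1608 ± 163 (n = 17) in males. Atp5b, the catalytic beta subunit of the ATP synthase, was the highest nuclear member at 611 ± 51.8 and 583 ± 52.5, and Sdhaf3, an assembly factor of complex II, was among the lowest at 4.14 and 1.97. The mitochondrial genes are transcribed as long common precursors, yet their own levels spread from 160 (mt-Nd3) to 3735 in females with mt-Nd4l aside, and from 136 (mt-Nd5) to 1608 in males. mt-Nd4l had no counts in 7 of the 15 female libraries and 27 to 108 counts in the others, and is given no fold change here.

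**Figure D1:**
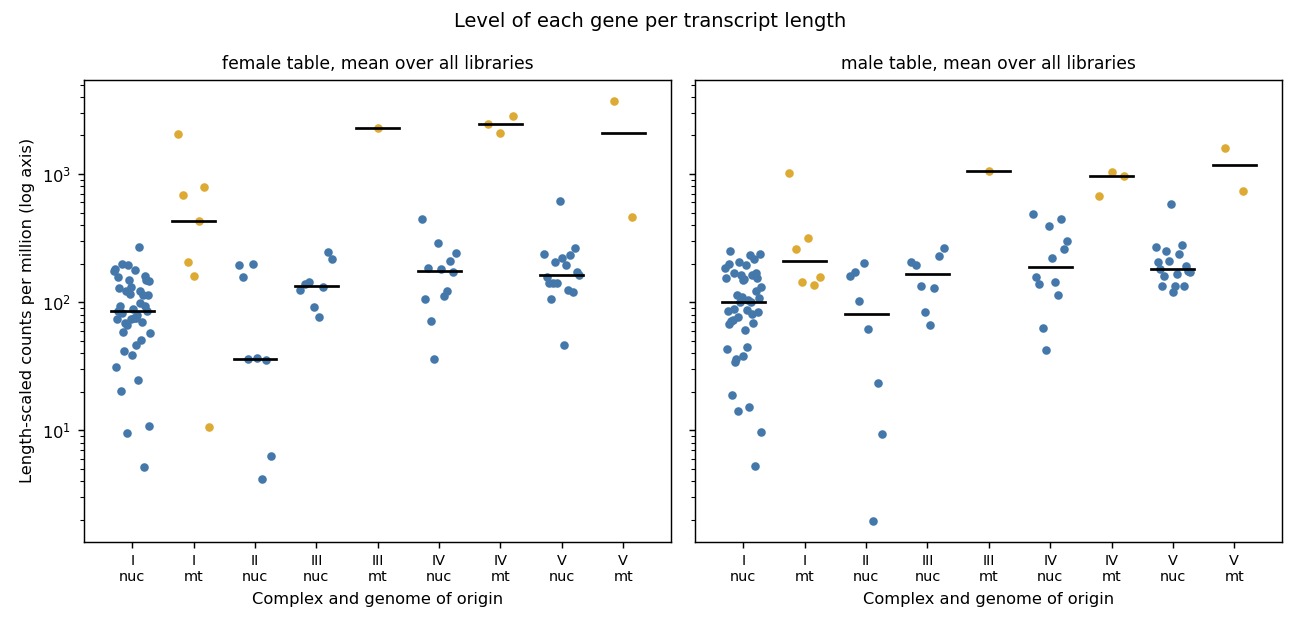
Level of each member per transcript length (length-scaled CPM, log axis), as the mean over the 15 female or 17 male libraries, by complex and by nuclear (nuc, blue) or mitochondrial (mt, yellow) origin. Each point is 1 gene and each bar the median of its set, assembly factors included. Most of the mitochondrially encoded genes lie above most nuclear ones in both tables.

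Among the isoform pairs, Cox6a1 stood at 210 ± 22.2 per length in females and 448 ± 44.9 in males, far above Cox6a2 at 36.1 ± 19.4 and 41.9 ± 30.1. The 3 genes for the c subunit of the ATP synthase ring, Atp5g1, Atp5g2 and Atp5g3, encode the same mature protein and were all expressed, at 158, 221 and 172 in females and 205, 120 and 176 in males. Cox7a2l stood at 123 and 114 and its relative Cox7a2, the widespread subunit 7A, at 106 and 156. Cox4i2, Cox7a1, Cox8b and Ndufa4l2, further tissue or low-oxygen isoforms, were not listed among the genes of either sex.

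The share of all counts that fell on respiratory chain genes overlapped between resident and repopulated libraries in each sex, with and without fracture. In females the mitochondrially encoded genes took 1.03, 0.841, 1.02 and 0.862% of counts in the resident libraries without fracture and 0.859, 0.949 and 0.794% in the repopulated ones. With fracture the values were 0.796, 0.817, 0.907 and 0.895% in resident and 0.893, 0.860, 0.914 and 0.696% in repopulated libraries. In males the mean share was 0.372 ± 0.0494% (SD, n = 3) in resident and 0.366 ± 0.0586% (n = 2) in repopulated libraries without fracture, and 0.394 ± 0.0505% (n = 5) and 0.380 ± 0.0285% (n = 7) with fracture. The nuclear members took 0.545 ± 0.0211% and 0.548 ± 0.0037% in the female resident and repopulated groups that had no fracture, and 0.540 ± 0.0249% and 0.515 ± 0.0218% with fracture. In males they took 0.6248 ± 0.0506% and 0.626 ± 0.0687% without and 0.615 ± 0.0393% and 0.605 ± 0.0155% with fracture. In female repopulated microglia the nuclear share was 0.5496, 0.5511 and 0.5441% without fracture and 0.525, 0.514, 0.485 and 0.535% with it, so these groups did not overlap and the fracture group was the lower one. Both identifiers of Ndufs3 and Uqcrc1, which carry identical counts, enter the nuclear shares. No test was made on these shares.

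**Figure D2:**
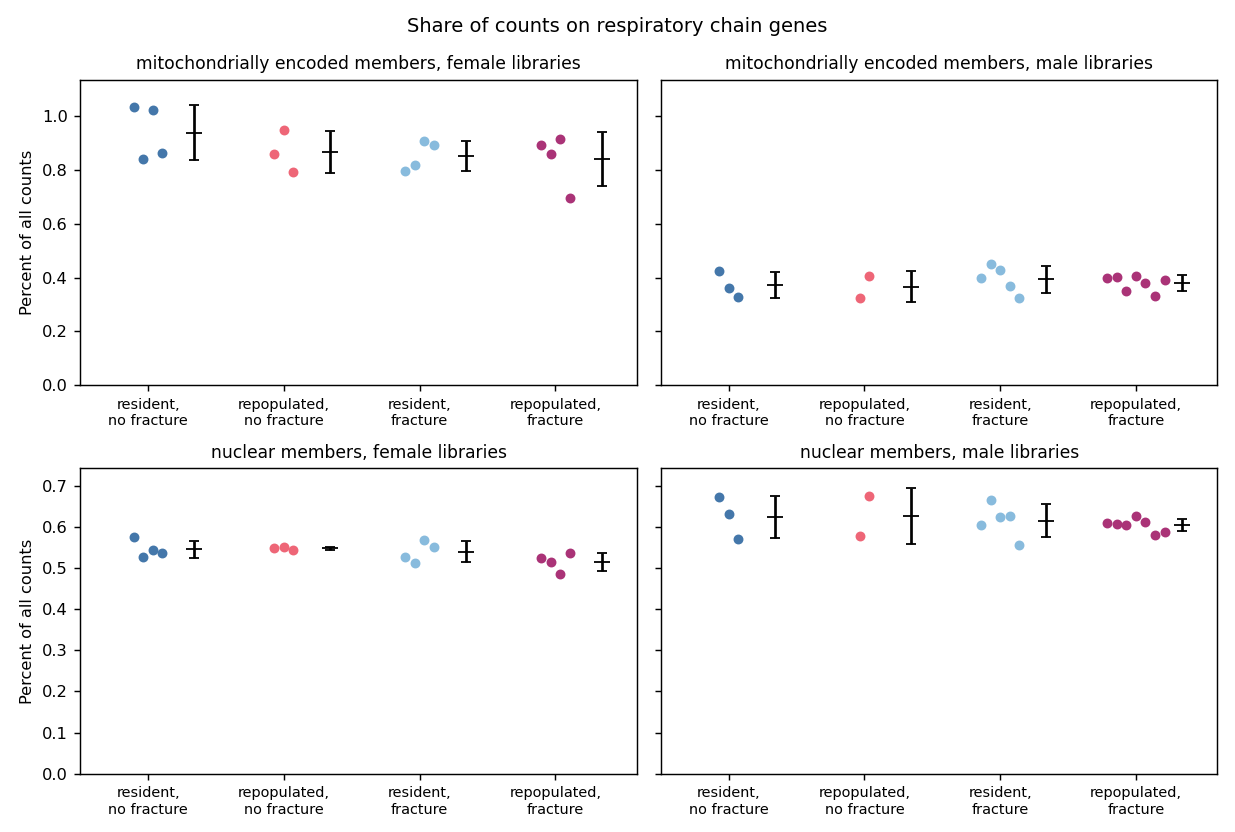
Percent of all counts per library on mitochondrially encoded (upper row) and nuclear (lower row) respiratory chain genes, for female (left) and male (right) libraries. Points are libraries and bars the group mean ± SD. Resident and repopulated groups overlap in all 4 panels, while the female repopulated libraries with fracture lie below those without it for the nuclear genes. The group means are 0.841 to 0.939% for the mitochondrially encoded genes in females and 0.366 to 0.394% in males.

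By complex, the share of nuclear complex IV genes separated resident from repopulated female libraries without fracture. They took 0.0727, 0.0582, 0.0734 and 0.0709% of counts in the resident libraries without fracture and 0.0806, 0.0785 and 0.0772% in the repopulated ones, and these groups did not overlap. With fracture they took 0.0682 ± 0.0060% and 0.0693 ± 0.0038% (n = 4 and 4), which overlapped. In males the means were 0.0911 ± 0.0162% and 0.105 ± 0.0118% without fracture and 0.0919 ± 0.0107% and 0.0953 ± 0.0034% with fracture, with overlap in both pairs. With both identifiers of Uqcrc1 counted, nuclear complex III genes separated the female libraries with fracture in the other direction. They took 0.0556 to 0.0625% in resident and 0.0529 to 0.0552% in repopulated libraries. With the second identifier of Uqcrc1 left out, these groups overlapped. In male libraries no complex separated resident from repopulated cells. Between fracture and no fracture, 3 nuclear classes did not overlap in female repopulated cells and were lower with fracture. These were complex III (0.0529 to 0.0552% with and 0.0553 to 0.0594% without), complex IV (0.0643 to 0.0733% and 0.0772 to 0.0806%) and complex V (0.152 to 0.169% and 0.170 to 0.176%). The complex III values again count both identifiers of Uqcrc1, and those groups overlapped with the second identifier left out. No test was made on these sums.

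Without fracture, every member that differed between repopulated and resident microglia by the test, in either sex, belonged to complex IV or carries the name of a complex IV subunit. In females 2 of 103 members, Cox7a2l and Cox4i1, were called higher and none lower (1.94%, against 2.53% of all genes, and 1.56% of all genes called higher; edgeR's quasi-likelihood test, Benjamini-Hochberg adjusted p under 0.05 over all genes). In males 5 of the 90 nuclear and 12 mitochondrially encoded members were called higher and none lower: Cox6a2, mt-Co1, Cox6c, Cox4i1 and Cox7a2l (4.90%, against 7.42% of all genes, and 4.70% called higher). The share of members called was thus no larger than that of all genes in either sex. With DESeq2 2 members were called in females, against 5.05% of all genes tested, and 6 in males, against 9.63%, where Uqcrq was added.

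Cox7a2l showed the same direction in both sexes. In females without fracture it stood at 52.7, 54.5, 70.6 and 60.5 CPM in resident and 80.6, 81.3 and 81.1 CPM in repopulated libraries. The repopulated libraries were all higher than the resident ones and lay within 1 CPM of each other. The log2 fold change was 0.44 ± 0.10 (SE; edgeR adjusted p = 0.029). In males without fracture Cox7a2l stood at 65.2, 58.1 and 57.5 CPM in resident and 73.6 and 95.4 CPM in repopulated libraries, again without overlap, with a log2 fold change of 0.48 ± 0.15 (edgeR adjusted p = 0.047). Its counts came from 1 protein-coding transcript, and no annotated gene overlaps it (chr17:83501918-83517330, minus strand).

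With fracture, Cox7a2l was the member called in females: 59.7, 54.1, 54.0 and 55.7 CPM in resident and 75.2, 71.5, 73.3 and 77.2 CPM in repopulated libraries. The groups did not overlap, and the log2 fold change was 0.41 ± 0.09 (edgeR adjusted p = 0.029). In males with fracture it stood at 56.2, 60.8, 58.9, 59.6 and 52.2 CPM in resident libraries and from 62.1 over a median of 71.1 to 80.9 CPM in the 7 repopulated ones. These groups did not overlap either, but the log2 difference of 0.30 ± 0.10 did not pass (edgeR adjusted p = 0.073), while it passed with DESeq2 (adjusted p = 0.033). The female call without fracture was lost without resident replicate 1, 2 or 4 or any of the 3 repopulated libraries (adjusted p up to 0.10), and that with fracture without any 1 of its own 8 libraries (adjusted p up to 0.090). The male call without fracture was lost without repopulated replicate 2 (log2 0.29, adjusted p = 0.56) and without 8 other libraries.

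Cox4i1, the widespread form of subunit 4, which carries the ATP-sensitive regulation of complex IV, was called in both sexes without fracture. In females it stood at 165, 124, 175 and 148 CPM in resident and 232, 202 and 199 CPM in repopulated libraries, without overlap (log2 0.46 ± 0.12, edgeR adjusted p = 0.048). In males it stood at 217, 162 and 145 CPM in resident and 217 and 266 CPM in repopulated libraries, where the highest resident library came within 1 CPM of the lowest repopulated one (log2 0.47 ± 0.14, edgeR adjusted p = 0.037). Leaving out male repopulated replicate 2 gave a log2 difference of 0.32 (adjusted p = 0.45), and the female call was lost without any 1 of 13 of the 15 libraries (adjusted p up to 0.20). With fracture the log2 difference was 0.16 ± 0.11 in females, at 137, 129.7, 163 and 152 CPM in resident and 162, 159, 147 and 180.3 CPM in repopulated libraries, which overlapped. In males with fracture it was 0.28 ± 0.09 (edgeR adjusted p = 0.071, DESeq2 0.033), with 161 to 191 CPM (median 169.6) in 5 resident and 192 to 225 CPM (median 212) in 7 repopulated libraries, which did not overlap. The gene (GRCm38, chr8:120668222-120674207, plus strand) lies whole within the span of Gm20388 on the same strand. The level of Gm20388 is not known here, and strand could not separate its reads from those of Cox4i1. Cox4i1 also overlaps Emc8 on the other strand. The log2 differences of Emc8 without fracture were 0.11 ± 0.14 and 0.04 ± 0.20, neither of them called. Whether the counting used strand is not given in the sources used here.

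Cox6a2 had the largest fold change of all members. In males without fracture it stood at 8.13, 7.56 and 3.71 CPM in resident and 35.4 and 44.5 CPM in repopulated libraries, with no overlap and a log2 fold change of 2.64 ± 0.46 (edgeR adjusted p = 0.00092). This call held without each of the 17 libraries in turn, with adjusted p from 0.00036 to 0.015. With fracture the male resident libraries stood at 6.11, 12.8, 12.1, 7.86 and 5.49 CPM and the repopulated ones at 10.01 to 32.7 CPM (median 14.2), which overlapped (log2 0.97 ± 0.30, edgeR adjusted p = 0.071, DESeq2 0.023). In females Cox6a2 varied widely within groups: 17.6, 3.41, 21.4 and 9.40 CPM in resident and 26.0, 15.6 and 23.7 CPM in repopulated libraries without fracture, and 5.01, 6.85, 7.42 and 8.76 against 7.93, 15.3, 7.65 and 11.9 CPM with fracture. Both female pairs overlapped and neither difference passed (log2 0.75 ± 0.45 and 0.61 ± 0.42). The widespread isoform Cox6a1 differed by 0.15 ± 0.18 and -0.04 ± 0.12 in males and by 0.08 ± 0.13 and -0.11 ± 0.12 in females, none of them called. Cox6a2 lies whole within the span of Itgad on the other strand. Itgad was not listed among the genes of either sex, so its level is not known here. Without strand the reads of overlapping genes cannot be told apart.

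Cox6c, an accessory subunit of complex IV, was called in males without fracture, at 53.6, 53.1 and 42.6 CPM in resident and 73.3 and 76.8 CPM in repopulated libraries. The groups did not overlap (log2 0.60 ± 0.17, edgeR adjusted p = 0.035), and without repopulated replicate 2 the adjusted p was 0.22. In females without fracture it stood at 48.3, 43.1, 56.6 and 58.6 against 64.5, 63.4 and 58.1 CPM, which overlapped (log2 0.26 ± 0.12, adjusted p = 0.31). With fracture the log2 difference was 0.12 ± 0.11 in females and 0.08 ± 0.11 in males. Cox6c (GRCm38, chr15:35925886-35938246, minus strand) overlaps Vps13b on the other strand, whose log2 differences without fracture were 0.21 ± 0.09 and 0.47 ± 0.44, neither of them called.

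mt-Co1 encodes the catalytic core subunit of complex IV and was the only mitochondrially encoded member called in any of the 10 comparisons. In males without fracture it stood at 451, 505 and 482 CPM in resident and 569 and 734 CPM in repopulated libraries, without overlap (log2 0.44 ± 0.10, edgeR adjusted p = 0.0077). Without repopulated replicate 2 the adjusted p was 0.34. With fracture the male resident libraries stood at 561, 563, 484, 568 and 488 CPM and the 7 repopulated ones at 575 to 647 CPM (median 617), again without overlap, but the log2 difference of 0.19 ± 0.07 did not pass (edgeR adjusted p = 0.11, DESeq2 0.066). In females the groups overlapped, at 2147, 1763, 2351 and 1745 against 2070, 2132 and 1849 CPM without fracture and 1634, 1541, 1803 and 1961 against 2193, 2014, 1909 and 1461 CPM with fracture. The female log2 differences were 0.01 ± 0.13 and 0.13 ± 0.12.

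The other nuclear subunits of complex IV had no call. Without fracture their log2 differences in females and males were -0.05 ± 0.12 and 0.16 ± 0.18 for Cox5a, 0.21 ± 0.14 and 0.23 ± 0.19 for Cox5b, 0.23 ± 0.13 and -0.11 ± 0.24 for Cox6b1, and 0.22 ± 0.10 and 0.26 ± 0.16 for Cox8a. Cox5a and Cox5b sit beside the catalytic core on the matrix side. Among the relatives of Cox7a2l, Cox7a2 differed by 0.05 ± 0.19 and 0.16 ± 0.18, against the 0.44 and 0.48 of Cox7a2l. Cox7b and Cox7c, further small membrane subunits, differed by 0.26 ± 0.15 and 0.19 ± 0.13 in females and by 0.13 ± 0.25 and 0.05 ± 0.21 in males. Ndufa4 differed by 0.01 ± 0.14 and -0.05 ± 0.19.

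**Figure D3:**
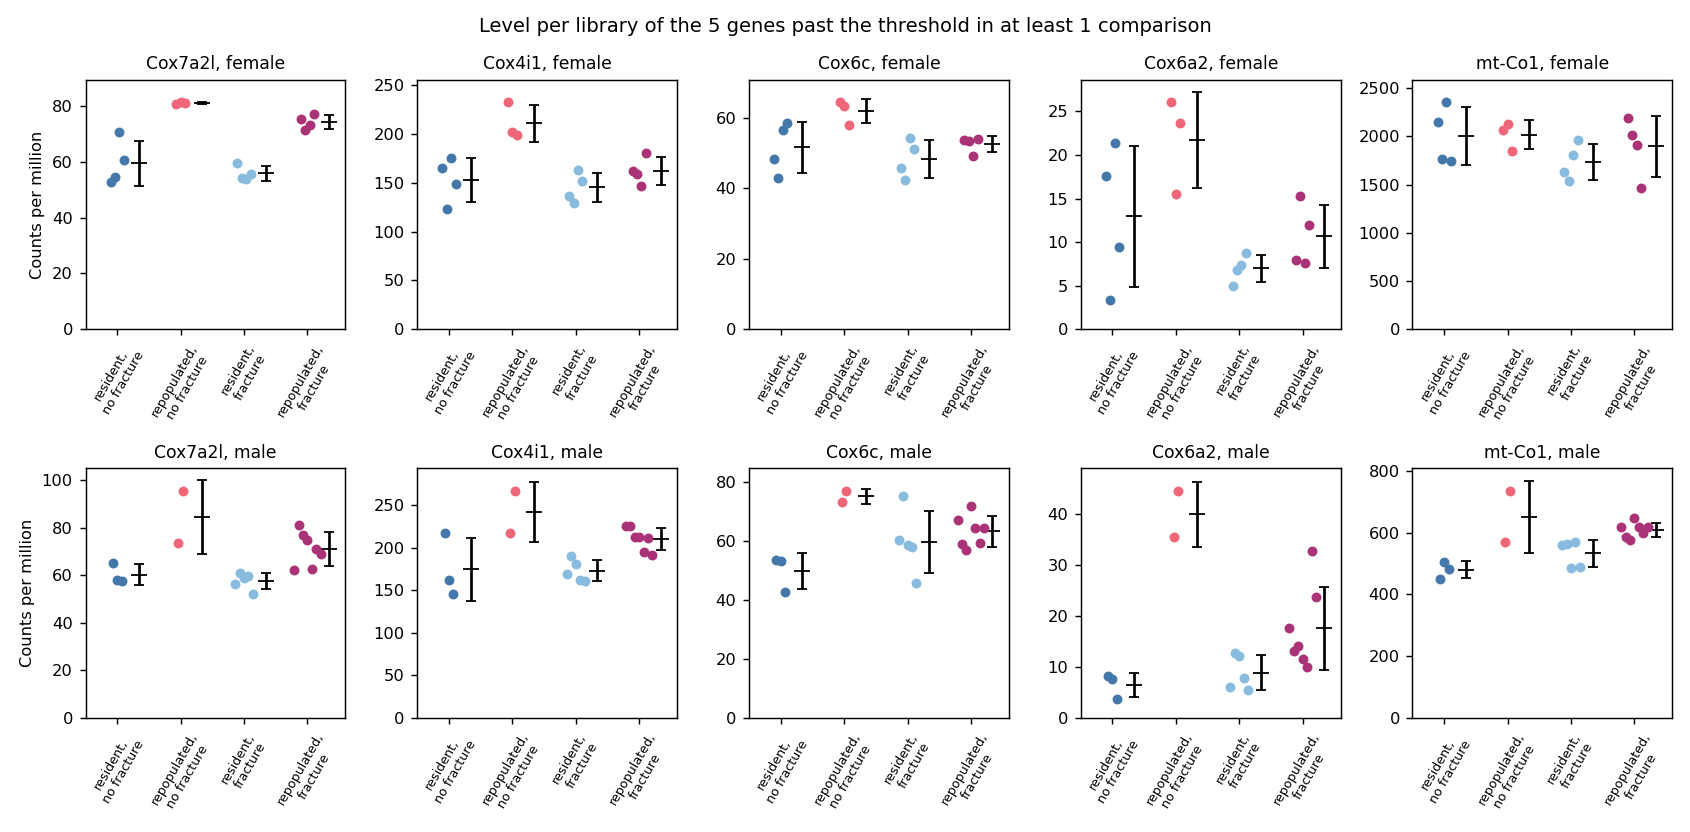
CPM per library of the 5 genes called in at least 1 comparison, in female (upper row) and male (lower row) libraries. Points are libraries, and bars the group mean ± SD. Cox7a2l is higher in repopulated than in resident libraries in both rows, with 80.6 to 81.3 against 52.7 to 70.6 CPM in females without fracture, while Cox6a2 in male repopulated libraries stands at 35.4 and 44.5 CPM without fracture and at 10.01 to 32.7 CPM with it.

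By complex, the nuclear genes of complex IV had the highest median difference among the nuclear sets without fracture, a description for which no test was made. In females 11 of 12 were above 0 with a median log2 difference of 0.22, and in males 11 of 12 with a median of 0.20, while the medians of all genes were -0.02 and -0.03. With fracture 9 of 12 (median 0.12) and 8 of 12 (median 0.05) were above 0. When libraries were scaled by their totals alone, the medians of nuclear complex IV stayed above 0, at 0.14 and 0.10 without and 0.03 and 0.01 with fracture, while the medians of all genes shifted to -0.11 and -0.12 without and -0.09 and -0.05 with fracture. For the other nuclear subunits without fracture the female medians were 0.12 for complex I (27 of 37 above 0), 0.04 for complex II, 0.12 for complex III and 0.18 for complex V (13 of 17 above 0), and the male ones were -0.01, 0.04, 0.02 and 0.06. With fracture they were 0.01, 0.00, 0.05 and 0.07 in females and -0.04, 0.06, 0.11 and -0.00 in males. Several of these medians changed sign with library totals only, such as female complex II (-0.05 without fracture) and male complex V (-0.03 without fracture).

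**Figure D4:**
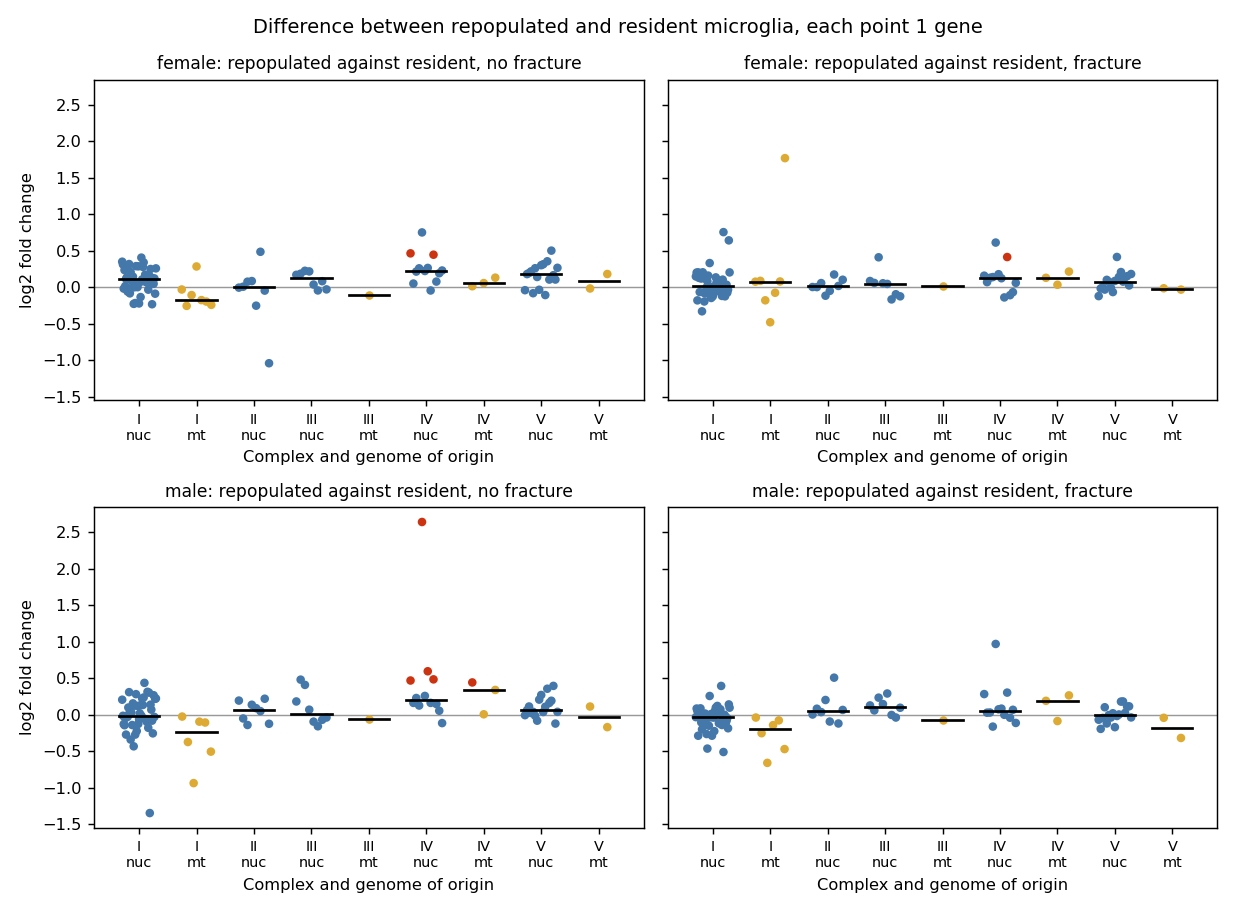
Log2 fold change of each member, repopulated against resident, by complex and nuclear (nuc, blue) or mitochondrial (mt, yellow) origin, in females (upper row) and males (lower row), without (left) and with (right) fracture. Points are genes, red points those called, and bars medians with assembly factors and mt-Nd4l included. The called points all lie in the complex IV columns, and the point at 2.64 in males without fracture is Cox6a2.

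Complex I, which feeds in electrons from NADH, had no member called in any comparison. Ndufa9, its most abundant nuclear member by CPM, stood at 114, 114, 99.8 and 100.98 CPM in female resident and 85.7, 89.0 and 98.8 CPM in female repopulated libraries without fracture, just without overlap and below (log2 -0.24 ± 0.09, adjusted p = 0.22). In males its difference was -0.08 ± 0.14. In females without fracture, 25 of the 30 accessory subunits were above 0 (median 0.14) and 2 of the 7 nuclear core subunits (median -0.01), and in males 14 of 30 and 4 of 7. Among members of at least 5 CPM, Ndufa5 was one of the lowest in males without fracture (log2 -0.34) and in females with fracture (-0.20). Its neighbours in that order were the core subunit Ndufs8 (-0.27 ± 0.16) in males without fracture and Ndufb4 (-0.18 ± 0.15) in females with fracture. In males with fracture the lowest were the assembly factor Ndufaf2 (-0.46 ± 0.29) and the accessory subunits Ndufs6 and Ndufa12 (-0.29 ± 0.16 each), and Ndufb2 had one of the highest differences (0.39 ± 0.19). Among the assembly factors, Ndufaf5 and Ndufaf7 were lower without overlap in males without fracture (log2 -1.35 ± 0.88 and -0.27 ± 0.17), as was the core subunit Ndufs1 (-0.14 ± 0.23), and Ndufaf6 was higher without overlap in females with fracture (0.64 ± 0.84), with none of these called.

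Complex II, which also works in the citric acid cycle and has no mitochondrially encoded subunit, had no member called. Sdha, its flavoprotein subunit, ranged from 248 to 270 CPM over the 7 female libraries without fracture, with a log2 difference of -0.01 ± 0.07, and of 0.00 ± 0.06 with fracture. In males Sdha stood at 199, 206 and 233 CPM in resident and 237 and 249.995 CPM in repopulated libraries without fracture, without overlap (log2 0.19 ± 0.10, not called). Its assembly factors were near the detection limit in some libraries: Sdhaf1 ranged from 0 to 19.9 CPM over the female libraries. Sdhaf3 differed by 0.48 ± 0.31 in females without and by 0.51 ± 0.39 in males with fracture, and Sdhaf4 by -0.26 ± 0.24 in females without fracture.

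In complex III, the cytochrome bc1 complex, 2 small subunits came close to the threshold. Uqcrh, the hinge protein, stood at 29.5, 30.4, 36.3 and 37.8 CPM in female resident and 44.6, 46.6, 41.9 and 44.6 CPM in female repopulated libraries with fracture, without overlap (log2 0.41 ± 0.12, edgeR adjusted p = 0.085, DESeq2 0.040). In males with fracture it stood at 28.6 to 39.6 CPM (median 37.6) in resident and 39.9 to 44.7 CPM (median 43.2) in repopulated libraries, also without overlap (log2 0.23 ± 0.12). Uqcrc2, a core protein of the complex, stood at 53.9 to 67.96 CPM (median 58.0) in male resident and 68.1 to 86.1 CPM (median 73.4) in male repopulated libraries with fracture, just without overlap (log2 0.29 ± 0.10, edgeR adjusted p = 0.11), while its differences were 0.04 ± 0.10 in females with fracture and -0.09 ± 0.16 in males without. Uqcrq, the other of these small subunits, stood at 57.2, 47.9 and 45.2 CPM in male resident and 60.8 and 79.2 CPM in male repopulated libraries without fracture (log2 0.48 ± 0.16, edgeR adjusted p = 0.078, DESeq2 0.045). Uqcrc1, the most abundant nuclear member of the complex by CPM, differed by -0.05 ± 0.09 and -0.16 ± 0.12 without fracture in females and males. Uqcrc1 and Ndufs3 are each listed under 2 identifiers with identical counts, and the level given is that of 1 identifier.

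In complex V, Atp5b stood at 497, 477, 489.7 and 442 CPM in female resident and 442, 500.1 and 451 CPM in female repopulated libraries without fracture, which overlapped (log2 -0.04 ± 0.07). In males it stood at 439, 445 and 442 CPM in resident and 475 and 546 CPM in repopulated libraries, without overlap (log2 0.21 ± 0.09, adjusted p = 0.21). The c subunit genes differed by 0.18 ± 0.12, 0.30 ± 0.13 and 0.10 ± 0.10 (Atp5g1, Atp5g2 and Atp5g3) in females without fracture and by 0.06 ± 0.16, 0.27 ± 0.30 and -0.12 ± 0.16 in males. The small subunit gene Atp5mpl had one of the largest positive differences in females without fracture, at 23.1, 17.2, 23.0 and 15.9 CPM in resident and 29.8, 28.4 and 25.7 CPM in repopulated libraries (log2 0.50 ± 0.20, not called).

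The spread of single members can be read against all genes. In females without fracture 13 members were higher without overlap, among them Cox8a, Cox7b, Atp5mpl and Ndufa13 (12.6% of members against 6.87% of all genes), and 1, Ndufa9, was lower (0.971% against 6.44%). At an unadjusted edgeR p under 0.05 there were 13 higher and 2 lower members, or 14.6% against 15.3% of all genes. In females with fracture 1 of 103 members was called (0.971%, against 2.35% of all genes, and 1.27% called higher), and 2 with DESeq2 (Cox7a2l and Uqcrh, against 5.08% of all genes tested). There, 6 members were higher without overlap (5.83% against 6.26%), 1 was lower, mt-Nd6 (0.971% against 5.64%), and 4 had an unadjusted p under 0.05 (3.88% against 13.7%). In males without fracture 10 members were higher (9.80% against 17.0%) and 3 lower (2.94% against 18.4%) without overlap, and 9 had an unadjusted p under 0.05, against 18.9% of all genes. In males with fracture 0 members were called by edgeR, against 4.91% of all genes. With DESeq2 there were 3 (Cox4i1, Cox6a2 and Cox7a2l, against 7.28%), and 7 had an unadjusted edgeR p under 0.05, against 15.7%. In that comparison Cox4i1, Cox7a2l, mt-Co1, Uqcrc2 and Uqcrh were higher without overlap (4.90% of members against 2.00% of all genes) and none was lower (0 against 1.58%).

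Over all members, mt-Nd4l included, 71 of 103 were above 0 in females without fracture (47.6% of all genes were) and 62 with fracture (49.98%), and in males 59 (47.2%) and 48 (49.1%). With library totals only these counts became 55, 35, 44 and 35, and the members' median turned from 0.04 to -0.05 in females with fracture and from 0.04 to -0.05 in males without.

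The mitochondrially encoded genes are described by complex, and were not tested against the nuclear ones. In females mt-Nd4l is left out of these medians, since 7 libraries had no counts of it. The genes for complex I subunits had a median log2 difference of -0.14 in females without fracture (1 of 6 above 0), -0.24 in males without (0 of 6) and -0.20 in males with fracture (0 of 6), and this direction stayed under each scaling tried. In females with fracture the median was -0.0023 (3 of 6 above 0), and -0.09 with library totals only (0 of 6). In males each of these complex I genes was highest in the resident libraries of 25574400, 27570700 and 33697500 counts. These held more counts than any repopulated library, while another resident library of 24537300 counts lay lower. Whether depth plays a part was not tested. The 3 complex IV genes mt-Co1, mt-Co2 and mt-Co3 lay above 0 in all comparisons except mt-Co2 in males with fracture (-0.09 ± 0.12), with medians of 0.05 and 0.13 in females and 0.34 and 0.19 in males, of which the female one without fracture became -0.03 with library totals only. mt-Co3, a core subunit, differed by 0.13 ± 0.11 and 0.21 ± 0.10 in females and by 0.34 ± 0.23 and 0.27 ± 0.15 in males, and none of these passed. Of the complex I genes, mt-Nd2 and mt-Nd4 differed by -0.20 ± 0.10 and -0.26 ± 0.11 in females without fracture, mt-Nd5 by -0.18 ± 0.10 and mt-Nd1 by -0.03 ± 0.11, and in males these 4 lay at -0.37 ± 0.31, -0.09 ± 0.17, -0.11 ± 0.19 and -0.02 ± 0.17. For the ATP synthase, mt-Atp6 differed by -0.02 ± 0.13 and mt-Atp8 by 0.18 ± 0.16 in females without fracture and by 0.11 ± 0.17 and -0.17 ± 0.42 in males, and with fracture the 2 genes lay between -0.32 and -0.02 in both sexes. mt-Cytb, the only mitochondrially encoded subunit of complex III, differed by -0.10 ± 0.11 and 0.02 ± 0.10 in females and by -0.05 ± 0.16 and -0.07 ± 0.11 in males.

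mt-Nd6, the one protein gene whose template is the other strand of the mitochondrial genome, had a negative difference in all 4 comparisons and was called in none. In males it stood at 75.9, 36.6 and 34.2 CPM in resident and 33.4 and 36.0 CPM in repopulated libraries without fracture, and at 47.0, 63.8, 76.1, 42.8 and 35.8 against 31.9 to 47.3 CPM (median 38.8) with fracture. Both pairs overlapped, with log2 differences of -0.50 ± 0.31 and -0.47 ± 0.19 (adjusted p = 0.43 and 0.21). The 3 resident libraries with the highest values held 25574400, 27570700 and 33697500 counts, more than any repopulated library, while another resident library of 24537300 counts stood at 34.2 CPM. The part of depth was not tested. In females with fracture mt-Nd6 stood at 49.4, 58.4, 52.5 and 54.8 CPM in resident and 48.2, 48.6, 44.1 and 48.8 CPM in repopulated libraries, without overlap but by a small difference (log2 -0.18 ± 0.11). mt-Nd3 was the most variable mitochondrial gene in males, from 4.20 to 48.9 CPM, and its differences of -0.94 ± 0.80 and -0.66 ± 0.50 were within that spread.

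**Figure D5:**
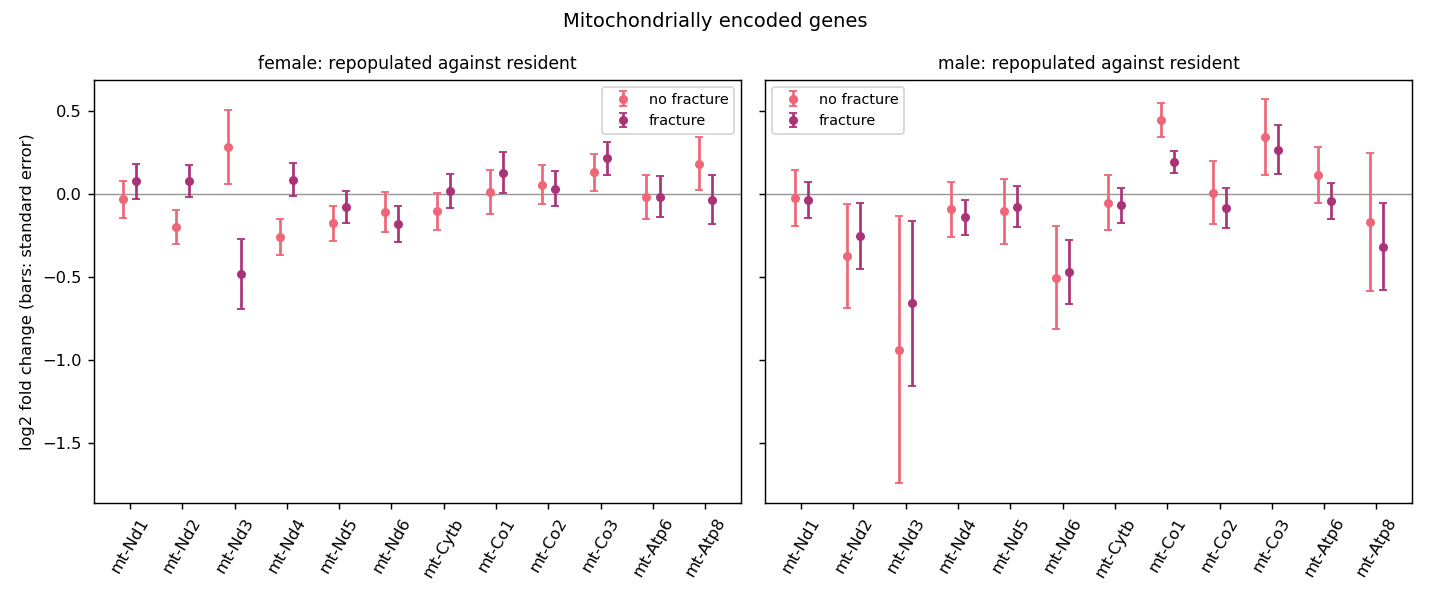
Log2 fold change, repopulated against resident, of 12 mitochondrially encoded genes in females (left) and males (right), without and with fracture. Points are fitted values and bars ± 1 SE, and mt-Nd4l is left out because 7 female libraries had no counts. mt-Co1 and mt-Co3 lie highest in males, at 0.44 and 0.34 without fracture, and mt-Nd3 and mt-Nd6 lowest.

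The mean log2 CPM of the mitochondrially encoded genes minus that of the nuclear ones gives their balance within a library. In females it was 2.63, 2.89, 3.06 and 2.36 in resident and 2.63, 2.89 and 2.57 in repopulated libraries without fracture, and 2.34, 2.40, 2.61 and 2.41 against 2.34, 2.61, 2.45 and 2.44 with fracture. These groups overlapped. mt-Nd4l, with its libraries at 0, enters the female values, and no female score without it was made. Among the resident libraries without fracture, those with mt-Nd4l at 4.66 and 5.98 CPM scored 2.89 and 3.06. Those at 0 scored 2.63 and 2.36. With fracture the resident library at 1.46 CPM scored 2.61, while the repopulated library at 3.46 CPM scored 2.44. How far this gene moves the female score was not tested. In males the means were 2.15 ± 0.14 and 1.93 ± 0.15 (SD, n = 3 and 2) without fracture, where the 2 repopulated libraries (1.82 and 2.04) lay just below the 3 resident ones (2.06 to 2.32), and 2.21 ± 0.18 and 2.06 ± 0.11 (n = 5 and 7) with fracture, which overlapped. No test was made on this score.

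No member passed the threshold for fracture in either sex or state. In female resident cells 0 of 103 members were called, against 0% of all genes by edgeR and 0.0391% by DESeq2. At an unadjusted p under 0.05 there were 5, all lower (Atp5c1, Atp5pb, mt-Nd2, mt-Nd4 and mt-Nd5), or 4.85% against 4.93% of all genes. In male resident cells 0 were called (0.00833% of all genes by edgeR, 0.100% by DESeq2), and 1, the assembly factor Ndufaf1, had an unadjusted p under 0.05 (log2 0.65 ± 0.28), against 4.26% of all genes. The mitochondrially encoded genes of resident cells lay mostly below 0 with fracture in females (2 of 12 above without mt-Nd4l, median log2 -0.14) and mostly above 0 in males (11 of 12 above, median 0.10), under each scaling tried. The 2 tables were not tested against each other.

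In repopulated cells the nuclear members stood mostly lower with fracture than without, although none was called (edgeR 0% of all genes in females and 0.00833% in males, DESeq2 0.665% and 1.78% of those tested). At an unadjusted p under 0.05 there were 8 members in females, 7 of them lower, against 10.5% of all genes, and 5 in males, all lower, against 8.29%. In females 24 of 90 nuclear members were above 0 (median -0.08, all genes -0.01) and in males 23 of 90 (median -0.11, all genes 0.01). In nuclear complex IV 1 of 12 was above 0 in females (median -0.12) and 0 of 12 in males (median -0.20), and these medians stayed below 0 under each scaling tried (-0.12 and -0.14 with library totals only). Cox6a2 had the most negative difference, -1.02 ± 0.45 in females and -1.19 ± 0.37 in males (edgeR adjusted p = 0.45 and 0.39). Cox4i1 differed by -0.38 ± 0.12 in females (adjusted p = 0.34). In the other direction, the assembly factors Sdhaf1 (complex II) and Ndufaf6 (complex I) were higher with fracture in females, at low levels and not called. Sdhaf1 differed by 2.11 ± 1.28 (edgeR adjusted p = 0.59) and Ndufaf6 by 1.336 ± 0.939 (edgeR adjusted p = 0.64). The repopulated libraries without fracture, 3 in females and 2 in males, serve in both this comparison and that with resident cells, so the 2 sets of values are not independent.

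Whether the difference between repopulated and resident cells changed with fracture was tested as an interaction, and 0 members passed in either sex (0% and 0.00833% of all genes by edgeR, 0.00748% and 1.52% by DESeq2 of those tested, with 0 members there too). In females 3 members had an unadjusted p under 0.05 (mt-Nd3, mt-Nd4 and Ndufa7), against 3.69% of all genes, and in males 4 (Cox6a2, Cox6c, mt-Co1 and Uqcrq), against 7.38%. The male Cox6a2 interaction was -1.67 ± 0.54 (adjusted p = 0.45). The differences with and without fracture are thus not shown to differ for any member.

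Around the chain itself, genes of the surrounding machinery were counted in 7 lists, against 2.53 and 2.35% of all genes called by edgeR in females without and with fracture and 7.42 and 4.91% in males. Of 41 assembly factors measured from a separate list, such as Surf1 and Sco1, none was called by edgeR in any comparison, and the same was true of 20 genes of electron carriers and coenzyme Q and 13 of mitochondrial carriers and channels. DESeq2 called 1 assembly factor in females without and 1 in males with fracture, 1 gene of the electron carrier list in males with fracture and 1 of the carriers and channels in females with fracture. Of 79 mitochondrial ribosomal protein genes 1 was called by edgeR, Mrps25, which fell by 0.93 ± 0.25 in males without fracture, and of 33 genes of mitochondrial gene expression 1, Fastkd3, an RNA-binding protein of mitochondria, which rose by 0.95 ± 0.25 in males with fracture. In the ribosomal list DESeq2 also called 1 gene in females without fracture. The citric acid cycle list had 1 of 19 genes called in each of the 4 comparisons of repopulated with resident cells. This was Idh2, the NADP-dependent mitochondrial isocitrate dehydrogenase, which fell from 131 ± 27.0 to 81.4 ± 8.37 CPM in females without fracture (n = 4 and 3; log2 -0.69 ± 0.13, edgeR adjusted p = 0.015) and from 117 ± 18.3 to 56.8 ± 5.84 CPM in males (n = 3 and 2; log2 -1.04 ± 0.18, edgeR adjusted p = 0.00074). With fracture it fell by 0.63 ± 0.12 and 0.58 ± 0.11. Among regulators, Ppargc1b, a coactivator of mitochondrial gene programs, rose from 3.51 ± 1.35 to 9.73 ± 1.53 CPM in females (log2 1.47 ± 0.36, edgeR adjusted p = 0.044) and from 2.92 ± 0.71 to 10.2 ± 2.45 CPM in males without fracture (log2 1.78 ± 0.49, edgeR adjusted p = 0.028). Hif1a, the oxygen-regulated transcription factor, rose by 1.01 ± 0.21 in males without fracture (edgeR adjusted p = 0.0043). These were 1 of 15 and 2 of 14 regulators measured, and with fracture edgeR called none and DESeq2 called 1 in females. In the comparisons of fracture with no fracture, neither tool called a gene of these lists.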

How the data were processed

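The authors deposited 1 table for each sex, with whole-number estimated counts for every transcript (mouse build GRCm38). The submitters' processing notes name STAR 2.7.6a and RSEM 1.3.1, beside Trim Galore 0.6.7 with cutadapt 3.4, DESeq2 1.34.0 under R 4.1.3, and, for quality, FastQC 0.11.9 and MultiQC 1.11. Transcripts appear where 8 or more of 15 female or 9 or more of 17 male libraries reached 10 counts, and all members listed entered the fits. Counts were summed by gene identifier. Ndufb4c, an annotated pseudogene, was left out. The second identifiers of Ndufs3 and Uqcrc1 were left out of the members, except in the shares of all counts, where both identifiers were summed.

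For each sex, 1 model over the 4 groups was fitted (edgeR 4.0.16, R 4.3.3; TMM scaling, filterByExpr, robust quasi-likelihood test), with Benjamini-Hochberg adjustment over all genes and a threshold of 0.05. The SE was derived from the log2 fold change and its F statistic. CPM is relative to library totals times TMM factors, and log2 CPM used a prior count of 2. The scripts were tested on simulated counts. DESeq2 1.42.0, library totals only, other filters, fits of only the 2 groups, a replicate block and leaving out each library were alternatives. Lengths and loci came from GENCODE M21, and promoters from RefSeq.

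Named genes are the called members, the mitochondrially encoded genes, the most abundant nuclear member of each complex, the 3 largest rises and falls per comparison among nuclear members of at least 5 CPM, and isoform pairs; Sdhaf1, Ndufaf5, Uqcrh, Uqcrq and the members named as not overlapping were added after their values were seen. The members and lists were chosen with earlier results of these data known.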

Additional observations from a re-analysis of the deposited data

Results flagged for a closer look

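Of 60 groups of 4 to 7 libraries tested over 12 measures for a library far from the rest of its group (Dixon's 95% limit, which chance passes in about 1 of 20), 3 stood out. Cox6c was low in female repopulated library 3 with fracture, at 49.3 CPM against a group median of 53.6. mt-Nd6 was low in the same library, at 44.1 CPM against 48.4. Nuclear complex IV genes took 0.0582% of counts in female resident library 2 without fracture, against a group median of 0.0718%.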

How the results depend on the processing

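The called counts were small, and most moved with the processing. Where the cause is not given by the construction, it was not tested. For females without fracture (2 called) the count was 0 with library totals only, 0 in a fit of only the 2 groups (fewer samples), 1 with coding transcripts only (Cox7a2l; chosen after seeing the data), and 0 to 2 when each library was left out. For females with fracture (1 called) it was 2 with DESeq2, 0 with library totals only, and 0 to 1 with each library left out, 0 without any 1 of its own 8 libraries. For males without fracture (5 called) it was 2 with library totals only (Cox6a2 and mt-Co1), 1 with only the 2 groups (Cox6a2), and 1 to 5 with each library left out, 1 without repopulated replicate 2 and 2 without resident replicate 2 or 3. For males with fracture (0 called) it was 3 with DESeq2, 1 with a mean of at least 5 CPM (Cox6a2), 1 with only the 2 groups (Cox4i1), and 0 to 2 with each library left out. The fracture counts stayed at 0 under all of these settings, and the interaction counts under all but the fit of only the 2 groups, which cannot give one.

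Few same-numbered libraries deviated together (3 of 21 female pairs and 0 of 17 male pairs correlated above 0.1). In groups this small that cannot exclude a pairing, and the main fits did not use the numbers as pairs. Some differently numbered female libraries correlated more. Resident library 4 without fracture correlated at 0.302 with resident library 1 with fracture and at 0.300 with repopulated library 3 without fracture. With the same-numbered resident library 4 with fracture it correlated at -0.312. The source of these correlations was not tested. With a replicate block the counts were 0 and 0 in females without and with fracture and 2 in males without fracture (Cox6a2 and mt-Co1), and no other count moved.

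The balance of mitochondrial over nuclear genes differed when medians replaced means: between repopulated and resident cells without fracture it went from -0.039 to -0.444 in females and from -0.222 to -0.0214 in males, and between fracture and no fracture in female repopulated cells from -0.236 to 0.159. The female values include mt-Nd4l, which had no counts in 7 libraries. With each library left out these differences ranged from -0.164 to 0.0684, -0.331 to -0.114 and -0.297 to -0.141. The others ranged from -0.0293 to 0.0776 (females, repopulated against resident with fracture), -0.421 to -0.188 (female resident, fracture), -0.197 to -0.0990 (males, repopulated against resident with fracture), 0.00704 to 0.136 (male resident, fracture) and 0.0260 to 0.243 (male repopulated, fracture). mt-Co1 in females without fracture (0.01) reversed to -0.0739 with library totals only, -0.00390 with a mean of at least 5 CPM, -8.45e-05 with only the 2 groups and -0.0171 with a replicate block, and ranged from -0.0491 to 0.0927 with each library left out. With 2 male repopulated libraries without fracture, a lone library left in that arm is assumed to vary like the other groups.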
